A study of Mus musculus with 6 samples.

Results

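The integrin and laminin genes were the 37 genes of the expression table whose symbols name an integrin alpha chain (18 genes), an integrin beta chain (8 genes), or a laminin alpha, beta or gamma chain (5, 3 and 3 genes), of 37979 genes in all. They were chosen by symbol, and each symbol occurred once in the table. They were measured by RNA-seq in hindlimb gastrocnemius (GAS) muscle of male mice, 20 weeks of age and without treatment, with 1 library per mouse. The 3 wildtype (WT) and 3 Kvβ2 knockout (KO) mice came from interbred carriers of one null allele of *Kcnab2*, which encodes the potassium channel subunit Kvβ2. The null allele is constitutive, so all cell types of the KO muscle carry it. The comparison asked which genes differ in expression between the genotypes.

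Integrins are receptors made of 1 alpha and 1 beta chain, which hold cells to the extracellular matrix and pass force and signals across the membrane. Laminins are trimers of 1 alpha, 1 beta and 1 gamma chain and form the sheet of the basement membrane that surrounds each myofiber, capillary and Schwann cell. In mature myofibers the main pair is integrin alpha7 beta1, which binds the laminin with the alpha2, beta1 and gamma1 chains, and loss of either alpha7 or laminin alpha2 causes muscular dystrophy.

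The table gives FPKM, fragments scaled to transcript length and to the mapped fragments of the library, so that levels can be compared between genes. The low values fell on steps of whole fragments, from which the libraries were estimated to hold 14760000 to 21580000 fragments, with each KO library below each WT library. Where 3 values are listed for a genotype, they follow the order of replicates 1, 7 and 8. *Kcnab2* was at 0.233, 0.10 and 0.110 FPKM in the WT mice against 0, 0.0151 and 0 FPKM in the KO mice. The summed FPKM of 10 myofiber markers was 15019 to 23027 in WT and 28302 to 30972 in KO muscle, with 5 of the 10 higher at an unadjusted p under 0.05 and a median log2 fold change of 0.65. Of all genes tested, 15.3% were higher at that level. After the correction for GC content given below, 2 of the 10 were higher, with a median of 0.37, where 5.33% of all genes were. The summed FPKM of 6 epithelial markers was 0.167 to 0.363 in WT and 0.267 to 0.623 in KO muscle, with *Krt14* listed at 0 in each library. Fold changes are log2 differences of KO minus WT on the scale of log2(FPKM + 0.1), which understates the change of low genes. The test was that of limma, run on the 12334 genes whose mean reached 0.5 FPKM, and its p-values were adjusted over all 12334 by Benjamini and Hochberg.

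Of the 37 genes, 21 passed this filter, 14 integrin and 7 laminin genes. None of the 21 had an adjusted p under 0.05 in limma, against 0.324% of all genes tested (0.251% higher and 0.073% lower in KO muscle). At an unadjusted p under 0.05, 5 genes were higher in KO muscle (*Lamb2*, *Itga5*, *Itga7*, *Itgb4* and *Itga9*), where 15.3% of all genes tested were, and 0 genes were lower, where 10.9% were (26.2% in either direction). Without overlap between the genotypes, the 3 KO libraries were the higher ones for 6 genes, where 18.3% of all genes tested did so, and the lower ones for 2 genes, where 16.2% did. The median log2 fold change was 0.054 over the 21 genes and 0.010 over all genes tested. With 3 mice per genotype, the smallest two-sided p of an exact permutation test is 0.1.

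*Itgb1*, the beta chain shared by most matrix-binding integrins, was the most abundant of the 37 genes, at 97.0, 91.2 and 92.9 FPKM in the WT mice against 92.0, 80.7 and 84.3 FPKM in the KO mice. The genotypes overlapped, and the log2 fold change was -0.13 (95% interval -0.36 to 0.10, adjusted p = 0.426). *Itgb5*, a partner of the alphav chain that binds vitronectin, came next at 31.1 to 40.1 FPKM over the 6 libraries. Below these, *Lamc1* (mean over the 6 libraries 18.4 FPKM), *Itga7* (14.7), *Lama2* (11.7), *Lamb2* (11.6) and *Itga6* (9.84) formed a second tier in which each gene's range overlapped that of the next. *Itga6* did not overlap *Lamb1*, which was followed by *Itgav*, *Lama5* and *Lama4*, all with means of 4.94 to 5.67 FPKM. Apart from *Itgax* and *Lama1*, all genes further down overlapped with their neighbors in this order.

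**Figure D1:**
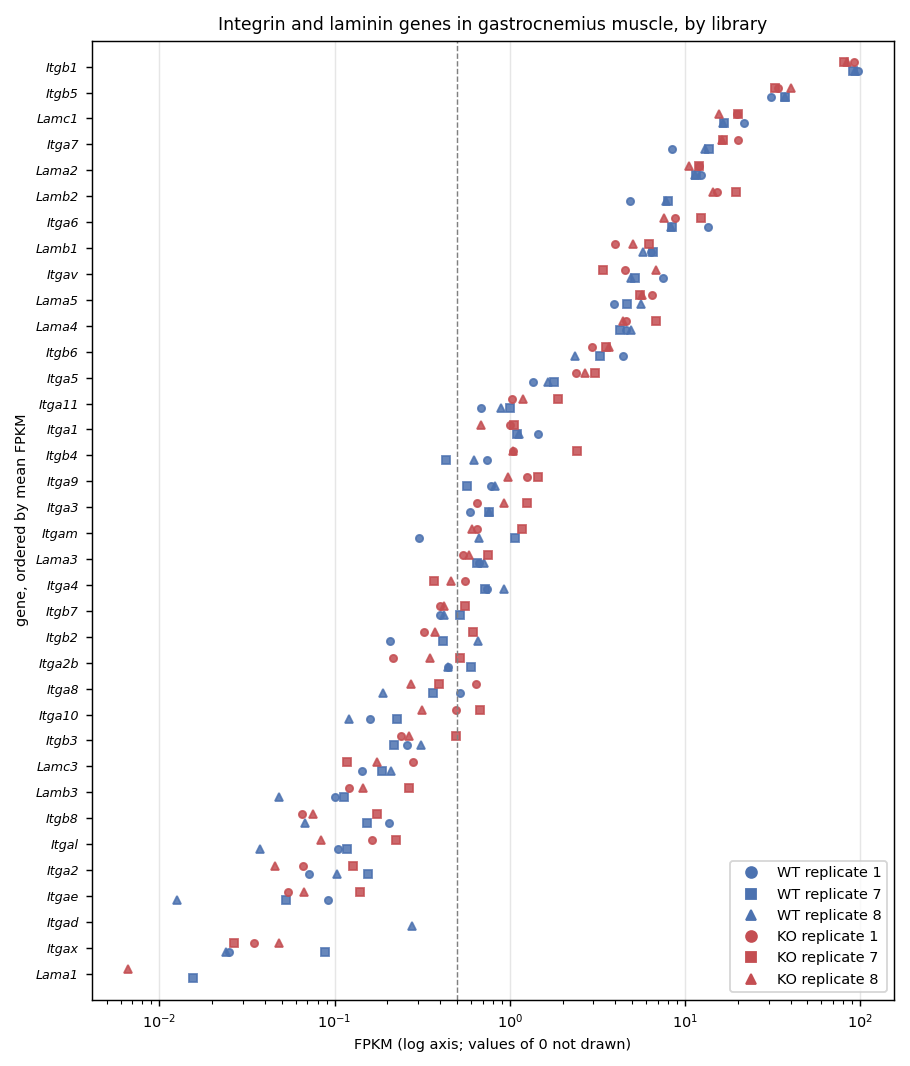
FPKM of 36 integrin and laminin genes (rows, ordered by mean) in each of the 6 libraries on a log axis, with WT in blue and KO in red and 1 symbol per replicate number; values of 0 are not drawn and the dashed line marks 0.5 FPKM. *Itgb1* (80.7 to 97.0 FPKM) and *Itgb5* (31.1 to 40.1 FPKM) stand above all others, and the KO points of *Lamb2* lie to the right of its WT points.

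*Lamb2* (ENSMUSG00000052911, GRCm38 chromosome 9, 108479736 to 108490530, plus strand), whose beta2 chain is concentrated in the basal lamina of the neuromuscular junction, was at 4.86, 7.98 and 7.79 FPKM in the WT mice. It was at 15.1, 19.5 and 14.5 FPKM in the KO mice. The lowest KO library lay well above the highest WT library. The WT mean of 6.88 ± 1.75 FPKM (SD, n = 3) compared with a KO mean of 16.4 ± 2.74 FPKM (SD, n = 3), a ratio of 2.38. The log2 fold change of 1.26 (standard error 0.22, limma adjusted p = 0.0667) was the largest of the 21 genes on the log2(FPKM + 0.1) scale, though *Itgb4* had the larger ratio of mean FPKM (2.51) and was above *Lamb2* with array weights and without WT replicate 1. The difference in *Lamb2* ranged from 1.03 to 1.39 when single libraries were dropped.

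*Lamb1* (ENSMUSG00000002900, chromosome 12, 31265234 to 31329644, plus strand), the beta chain of the laminin that covers most of the myofiber surface, was at 6.43, 6.60 and 5.77 FPKM in the WT mice against 3.96, 6.20 and 5.08 FPKM in the KO mice. KO replicate 7 lay among the WT libraries and the other 2 KO libraries below them, and the log2 fold change was -0.32 (adjusted p = 0.281), which was -0.15 without KO replicate 1 and -0.47 without KO replicate 7. The ratio of the 2 beta chains, picked after their values were seen, was 0.756, 1.21 and 1.35 *Lamb2* to 1 *Lamb1* in the WT mice. In KO replicates 1, 7 and 8 it was 3.82, 3.15 and 2.86. Such a ratio within a library does not depend on how the libraries are scaled to each other.

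The other laminin chains that passed the filter overlapped between the genotypes. *Lama2*, the alpha chain of muscle laminin, was at 12.3, 11.6 and 11.4 FPKM in the WT mice against 12.0, 12.1 and 10.6 FPKM in the KO mice, with a log2 fold change of -0.027 (95% interval -0.28 to 0.22). *Lamc1*, the common gamma chain, was at 21.6, 16.7 and 16.5 FPKM in the WT mice against 19.7, 20.1 and 15.6 FPKM in the KO mice (log2 fold change 0.015, 95% interval -0.35 to 0.38). The intervals of both genes leave out a 2-fold difference in either direction. *Lama4* and *Lama5*, the alpha chains of vascular basement membranes, were at 4.24 to 6.87 and 3.94 to 6.51 FPKM over the 6 libraries, with log2 fold changes of 0.18 and 0.33 (adjusted p = 0.563 and 0.224). For *Lama5* the overlap came from 1 KO library, replicate 7 at 5.55 FPKM, which lay just under WT replicate 8 at 5.603 FPKM.

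*Lama3* and *Lamb3*, chains of the laminin of epithelial basement membranes, stayed at 0.0481 to 0.751 FPKM. Of these, *Lama3* passed the filter (log2 fold change -0.11, adjusted p = 0.830). *Lamb3* was at 0.1003, 0.113 and 0.0481 FPKM in the WT mice against 0.121, 0.268 and 0.145 FPKM in the KO mice, which do not overlap, but these levels stand for only about 5.05 to 25.2 fragments per library. *Lamc3* was at 0.117 to 0.281 FPKM, and *Lama1*, the alpha chain of embryonic laminin, was listed at 0 in 4 libraries and at 0.00662 and 0.0156 FPKM in KO replicate 8 and WT replicate 7.

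**Figure D2:**
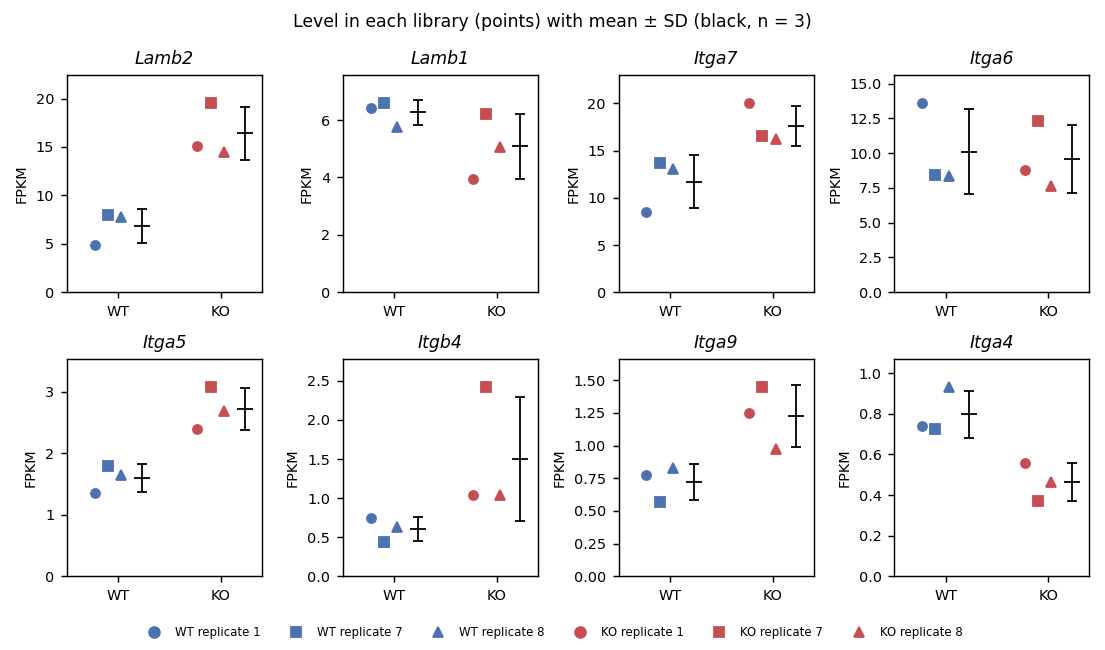
FPKM of 8 laminin and integrin genes in each library (points, shaped by replicate number), with the mean ± SD of the 3 libraries of each genotype in black and axes that start at 0. The KO and WT points are apart for *Lamb2* (14.5 to 19.5 against 4.86 to 7.98 FPKM), *Itga7*, *Itga5*, *Itgb4*, *Itga9* and *Itga4*, and overlap for *Lamb1* and *Itga6*.

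The integrin alpha chains differ in their ligands but mostly share a short motif of 5 residues where the tail leaves the membrane, through which alpha and beta tails hold each other. The coding sequence around this motif is printed for 5 genes, chosen among those with the common form of the motif, to show how the base composition of these related genes differs. *Itga8*, *Itga9*, *Itga10* and *Itga11* depart from the common form. In *Itga3*, *Itgal* and *Itgam* the motif was not located in the transcript used. Each stretch of 75 bases runs across the joint of 2 coding exons and was taken from the GENCODE vM21 transcript with the longest coding sequence (GRCm38). Capitals mark the 15 bases of the motif, which encode the same residues in all 5 genes.
Itga7: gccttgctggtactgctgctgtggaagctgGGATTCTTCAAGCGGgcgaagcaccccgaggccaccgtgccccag
Itga5: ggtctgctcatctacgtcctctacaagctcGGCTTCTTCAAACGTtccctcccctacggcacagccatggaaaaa
Itga6: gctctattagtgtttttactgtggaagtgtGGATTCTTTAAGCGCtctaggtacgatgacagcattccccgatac
Itgav: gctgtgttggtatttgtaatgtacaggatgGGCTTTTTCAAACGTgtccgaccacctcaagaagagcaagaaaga
Itga4: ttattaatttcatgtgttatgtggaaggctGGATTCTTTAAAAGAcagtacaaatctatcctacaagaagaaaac
The stretches span chr10:128954045-128957668 (plus strand) for *Itga7*, chr15:103345305-103345978 (minus strand) for *Itga5*, chr2:71849480-71855901 (plus strand) for *Itga6*, chr2:83802976-83803287 (plus strand) for *Itgav* and chr2:79325668-79326567 (plus strand) for *Itga4*. G and C make up 49 of the 75 bases in *Itga7* and 40 in *Itga5*, but 33 in *Itga6*, 33 in *Itgav* and 23 in *Itga4*. Over whole transcripts, the GC content was 53.8% for *Itga7*, 57.0% for *Itga5*, 47.2% for *Itga6*, 46.9% for *Itgav* and 43.5% for *Itga4*. *Itga2b*, which is not printed, also has the common form, with 41 of 75 bases G or C and 58.2% GC over whole transcripts. It was under the filter, with means of 0.495 FPKM in WT and 0.361 FPKM in KO muscle, and the genotypes overlapped.

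Among the laminin-binding chains, *Itga7* (ENSMUSG00000025348, chromosome 10, 128933818 to 128958282, plus strand), the alpha chain of mature myofibers, was at 8.47, 13.7 and 13.01 FPKM in the WT mice against 20.1, 16.5 and 16.2 FPKM in the KO mice. The genotypes did not overlap, and WT replicate 1 was the lowest of the 6 libraries. The means were 11.7 ± 2.83 FPKM (SD, n = 3) and 17.6 ± 2.12 FPKM (SD, n = 3), and the log2 fold change was 0.61 (standard error 0.20, limma adjusted p = 0.122) and 0.39 without WT replicate 1. That library also had the lowest summed myofiber markers (15019 against 20515 and 23027 FPKM in the other two) and the lowest *Dag1*, whose part in the difference was not tested. *Itga6*, which pairs with beta1 or beta4 in endothelial, Schwann and epithelial cells, was at 13.6, 8.396 and 8.35 FPKM in the WT mice against 8.78, 12.3 and 7.62 FPKM in the KO mice, with 1 high library in each genotype (log2 fold change -0.070, adjusted p = 0.880). *Itga3* was at 0.589 to 1.25 FPKM (log2 fold change 0.34, adjusted p = 0.483).

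*Itgb4* (ENSMUSG00000020758, chromosome 11, 115974709 to 116008412, plus strand), the beta chain that pairs with alpha6 alone, was at 0.740, 0.434 and 0.626 FPKM in the WT mice against 1.04, 2.42 and 1.04 FPKM in the KO mice. KO replicate 7 was far above the other KO libraries, which were the same in all deposited digits, and these still lay above each WT library. The log2 fold change was 1.11 (standard error 0.37, adjusted p = 0.1295) and 0.73 without KO replicate 7. In bulk muscle, more cells of a type and more RNA per cell cannot be told apart. The summed FPKM of 7 Schwann cell markers was 135 in KO replicate 7 against 32.4 and 56.4 in KO replicates 1 and 8. In WT replicates 1, 7 and 8 it was 69.0, 105 and 28.5. WT replicate 7, with the highest of the WT sums, had the lowest *Itgb4* of the 6 libraries. None of these markers was at 0 in any library, and of the 6 tested, 0 had an unadjusted p under 0.05. KO replicate 7 also had the highest summed endothelial (95.2 FPKM) and epithelial (0.623 FPKM) markers of the 6 libraries. WT replicate 7 lay between the other WT libraries in both of these sums. The part of these cell types in the *Itgb4* difference was not tested.

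Of the chains that bind fibronectin and vitronectin, *Itga5* (ENSMUSG00000000555, chromosome 15, 103344286 to 103366763, minus strand), the fibronectin receptor, was at 1.35, 1.796 and 1.65 FPKM in the WT mice against 2.39, 3.08 and 2.69 FPKM in the KO mice. The genotypes did not overlap and the spread within each was small, with a WT mean of 1.598 ± 0.226 FPKM (SD, n = 3) and a KO mean of 2.72 ± 0.345 FPKM (SD, n = 3). On the log2 scale the difference of 0.73 (standard error 0.17, limma adjusted p = 0.0785) ranged from 0.62 to 0.82 when single libraries were dropped. *Itgav*, which pairs with beta1, beta3, beta5, beta6 and beta8, was the most abundant chain of this group. It was at 7.44, 5.19 and 4.93 FPKM in the WT mice against 4.53, 3.41 and 6.79 FPKM in the KO mice, and the genotypes overlapped (log2 fold change -0.28, 95% interval -0.91 to 0.34). *Itga8* stayed at 0.189 to 0.641 FPKM.

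The beta partners of alphav did not separate the genotypes. *Itgb5* had a log2 fold change of 0.022 (95% interval -0.27 to 0.32). *Itgb6*, known mostly from epithelia, was at 4.44, 3.26 and 2.36 FPKM in the WT mice against 2.95, 3.56 and 3.66 FPKM in the KO mice (log2 fold change 0.054, adjusted p = 0.902). Each of these values was above the summed epithelial markers of the same library, but which cells the *Itgb6* RNA came from was not tested. *Itgb3* and *Itgb8* stayed at 0.0649 to 0.495 FPKM, under the filter.

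*Itga9* and *Itga4*, closely related chains that bind osteopontin, fibronectin and Vcam1, lay on opposite sides of 0. *Itga9* (ENSMUSG00000039115, chromosome 9, 118606690 to 118901003, plus strand) was at 0.776, 0.567 and 0.827 FPKM in the WT mice against 1.25, 1.45 and 0.9745 FPKM in the KO mice, so that the KO mice were above the WT mice throughout (log2 fold change 0.68, standard error 0.26, adjusted p = 0.156). *Itga4* (ENSMUSG00000027009, chromosome 2, 79255426 to 79333123, plus strand), a chain of leukocytes and satellite cells, was at 0.741, 0.724 and 0.932 FPKM in the WT mice against 0.557, 0.371 and 0.464 FPKM in the KO mice, so that the KO mice were below the WT mice throughout. Its log2 fold change was -0.68 (standard error 0.30, limma adjusted p = 0.198). It passed the filter through its WT mean of 0.799 FPKM, as its KO mean was 0.464 FPKM. Its exons share 1124 of 13978 annotated bases with those of *Cerkl* on the other strand (mean 0.969 FPKM), and whether counting used the strand is not given in the sources used here.

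The collagen-binding chains were low. *Itga11*, of fibroblasts, was at 0.684, 1.00 and 0.896 FPKM in the WT mice against 1.03, 1.88 and 1.19 FPKM in the KO mice. The KO libraries lay above the WT libraries, though by little between KO replicate 1 and WT replicate 7, and the log2 fold change of 0.58 (adjusted p = 0.232) was 0.34 without KO replicate 7. *Itga1*, of endothelial and smooth muscle cells, was at 1.45, 1.104 and 1.13 FPKM in the WT mice against 1.00, 1.06 and 0.683 FPKM in the KO mice, again without overlap but with a small gap (log2 fold change -0.40, adjusted p = 0.330, and -0.23 without KO replicate 8). *Itga10*, of cartilage, was under the filter at 0.158, 0.227 and 0.121 FPKM in the WT mice against 0.495, 0.677 and 0.315 FPKM in the KO mice, without overlap (mean log2 difference 1.12, exact permutation test, two-sided, p = 0.1). About 13.2 to 66 fragments per library stood behind these values. Of its 5186 exonic bases, 1739 are shared with *Gm42957* on the same strand. *Itga2* was at 0.0458 to 0.156 FPKM.

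The chains of leukocyte integrins were near the floor. *Itgam*, of macrophages and neutrophils, was the only one of the 7 that passed the filter, at 0.303, 1.07 and 0.670 FPKM in the WT mice against 0.649, 1.18 and 0.612 FPKM in the KO mice, with more spread within each genotype than between them (log2 fold change 0.30, 95% interval -0.76 to 1.37). Of its 5024 exonic bases, 3450 belong to *Gm49368* as well. *Itgb2* and *Itgb7* were at 0.206 to 0.661 FPKM and *Itgal*, *Itgae* and *Itgax* at 0.0126 to 0.225 FPKM. *Itgad* was listed at 0 in 5 libraries and at 0.277 FPKM in WT replicate 8. *Itga2b*, the platelet chain, was at 0.443 to 0.599 FPKM in WT and 0.216 to 0.518 FPKM in KO muscle, beside summed platelet markers of 2.64 to 4.70 and 2.96 to 8.89 FPKM, of which *Gp9* was at 0. These 5 markers include *Itga2b* itself, so the sum is not independent of it, and only 1 of the 5 passed the filter. The summed FPKM of 9 leukocyte markers was 6.46 to 14.7 in WT and 9.57 to 20.8 in KO muscle, and 2 of the 7 tested were higher in KO muscle at an unadjusted p under 0.05, where 15.3% of all genes tested were. After the correction for GC content given below, 0 of the 7 were, where 5.33% of all genes were.

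KO replicate 7 was the highest of the KO libraries for 14 of the 21 tested integrin and laminin genes, and for 30.8% of all genes tested. It also had the highest summed endothelial markers (95.2 FPKM against 78.5 and 76.0 in KO replicates 1 and 8, and 67.5 to 75.0 in WT muscle) and leukocyte markers. Of the 10 endothelial markers, 3 were higher and 1 lower in KO muscle at an unadjusted p under 0.05, and none was at 0 in any library. The summed markers of pericytes and smooth muscle were 128 to 149 FPKM in WT and 126 to 141 FPKM in KO muscle, with 3 of 8 higher. Those of fibroblasts and tendon cells were 445 to 655 and 430 to 611 FPKM, with 1 of 10 higher, and those of satellite cells 9.77 to 13.4 and 14.8 to 16.7 FPKM, with 1 of the 3 tested higher. Of all genes tested, 15.3% were higher and 10.9% lower at that level. After the correction for GC content given below, 0 endothelial markers and 0 markers of fibroblasts and tendon cells were higher. For pericytes and smooth muscle 2 were higher and for satellite cells 1, and 0 were lower in each of these lists. Of all genes, 5.33% were then higher and 5.4% lower. The part of these cell types in the integrin and laminin differences was not tested. Without KO replicate 7, *Lamb2*, *Itga5* and *Itga7* were at an unadjusted p under 0.05 and higher in KO muscle, with log2 fold changes of 1.13, 0.64 and 0.65, and *Lamb1* was lower, at -0.47 (unadjusted p = 0.0222, limma). The share of all genes at that level was not taken for this fit, so it is not known whether these members exceed it.

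**Figure D3:**
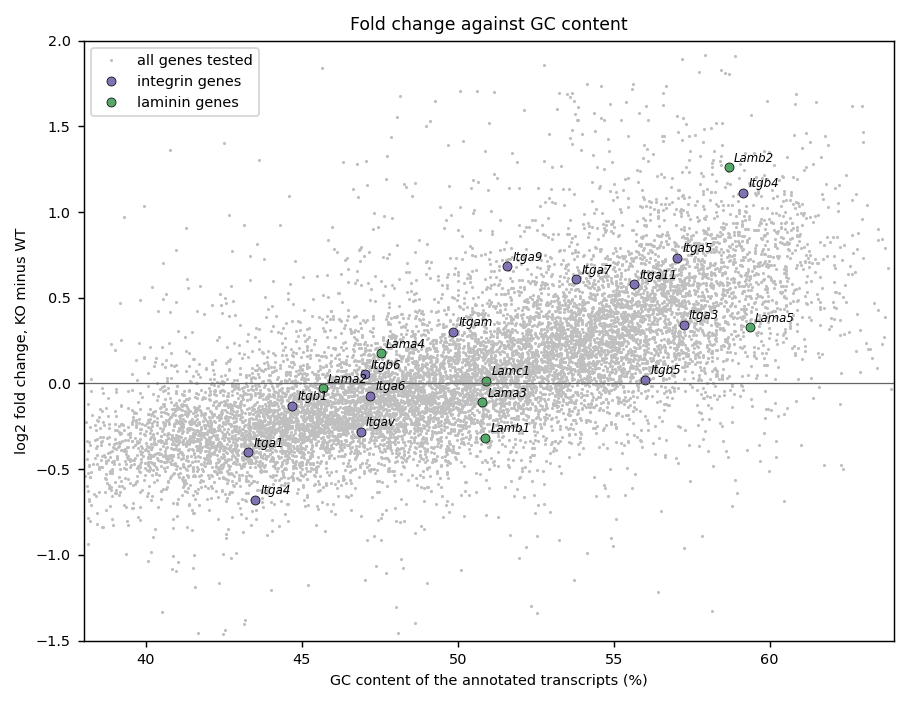
Log2 fold change (KO minus WT) against the GC content of the annotated transcripts for 11985 tested genes (gray; 292 lie outside the axes), with the 14 integrin genes in purple and the 7 laminin genes in green. The fold changes of integrin and laminin genes tend to be higher at higher GC content, as in the gray cloud, with the lowest for *Itga4* at 43.5% and the highest for *Lamb2* at 58.7%.

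The fold changes of these genes moved with their GC content. Across the 21 genes, Spearman's rho between GC content and log2 fold change was 0.80, and across the 11985 tested genes of known GC content it was 0.70. Genes are not independent replicates, and all fold changes came from the same 6 libraries. The 6 genes of 56% GC or more (*Itga3*, *Itga5*, *Itgb4*, *Itgb5*, *Lama5* and *Lamb2*) had a median log2 fold change of 0.54, where all 2067 genes in that range had a median of 0.53. The 8 genes under 48% were *Itga1*, *Itga4*, *Itga6*, *Itgav*, *Itgb1*, *Itgb6*, *Lama2* and *Lama4*, and 6 of them had log2 fold changes below 0. How base composition enters these values was not tested beyond the correction given next.

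When each library was corrected for its trend on GC content, the log2 fold change of *Lamb2* went from 1.26 to 0.71 (95% interval 0.36 to 1.06, unadjusted p = 0.00188, adjusted p = 0.285), and it was the only one of the 21 genes higher in KO muscle at an unadjusted p under 0.05, where 5.33% of all genes were. The 1 gene lower at that level, where 5.4% of all genes were, was *Itgb5*. By adjusted p, 0.117% of all genes and none of the 21 were called. The corrected log2 ratio of *Lamb2* to *Lamb1* was -0.012, 0.56 and 0.53 in WT and 1.71, 1.25 and 1.30 in the KO mice. The genotypes were thus still apart, by 1.06 in the mean against 1.58 without the correction. *Itga9* moved little, from 0.68 to 0.60 (95% interval -0.022 to 1.22). The log2 fold changes of *Itga7* (0.36), *Itga5* (0.27) and *Itgb4* (0.53) became smaller, with intervals that included 0, and that of *Itga4* became -0.41. *Itgb5* moved to -0.37 (95% interval -0.64 to -0.094, adjusted p = 0.367) and *Lama5* to -0.26, so that their sign turned. Of the 21 genes, 14 kept their sign.

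**Figure D4:**
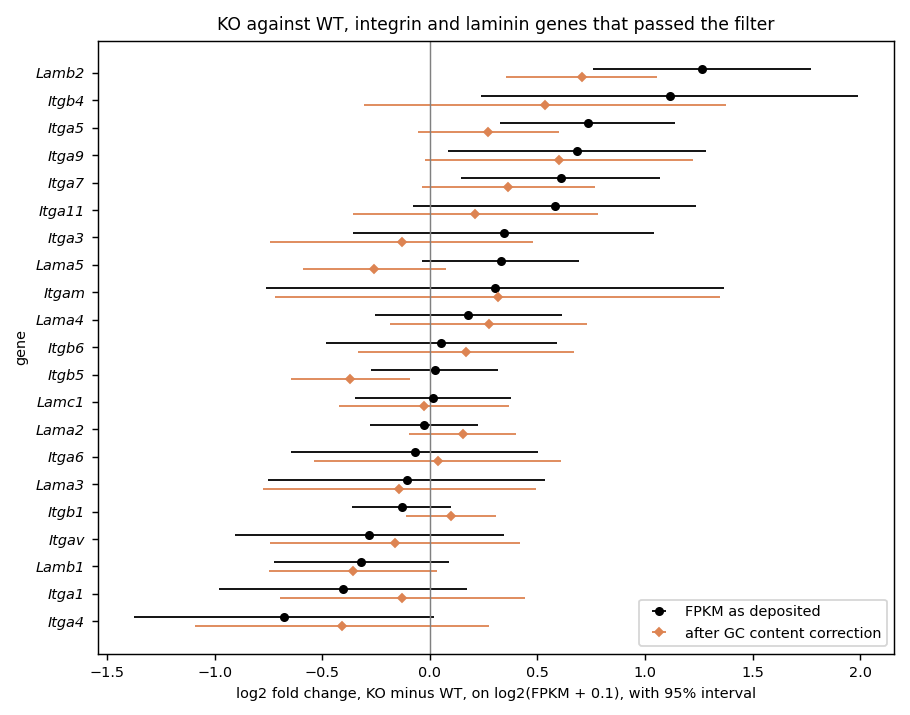
Log2 fold changes of the 21 integrin and laminin genes that passed the filter, with 95% intervals, for the FPKM as deposited (black) and after correction for GC content (orange). The intervals of *Lamb2*, *Itgb4*, *Itga5*, *Itga9* and *Itga7* lie above 0 in black, and only that of *Lamb2* does so in orange (0.36 to 1.06).

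Proteins that couple integrin tails to actin were read from a list of 28 adaptors and kinases, of which 27 were in the table and 23 were tested. Of these, 0 had an adjusted p under 0.05 in limma, 9 were higher and 0 lower in KO muscle at an unadjusted p under 0.05, and the median log2 fold change was 0.25, where 15.3% of all genes were higher and 10.9% lower. After the correction for GC content, 4 were higher and 1 lower, with a median of 0.074, where 5.33% and 5.4% of all genes were. The same shares of all genes apply to the counts of the lists that follow. *Tln1*, a talin that activates integrins by binding the beta tail, was at 7.18, 9.39 and 7.32 FPKM in the WT mice against 11.6, 11.3 and 10.8 FPKM in the KO mice (log2 fold change 0.50, adjusted p = 0.0911, and 0.12 after the correction). The genotypes did not overlap for it, nor for *Tln2*, the talin of mature muscle, at 8.04, 10.3 and 11.3 FPKM in the WT mice against 13.7, 11.7 and 12.4 FPKM in the KO mice (0.36, adjusted p = 0.184, and 0.17 after the correction). *Lims2*, which encodes Pinch2, a scaffold of integrin-linked kinase, was at 4.53, 3.87 and 3.95 FPKM in the WT mice against 5.75, 11.2 and 9.07 FPKM in the KO mice (1.01, adjusted p = 0.0758, and 0.54 after the correction). *Zyx*, the focal adhesion protein zyxin, was at 2.81, 3.69 and 4.22 FPKM in the WT mice against 5.94, 7.86 and 6.15 FPKM in the KO mice (0.88, adjusted p = 0.0716, and 0.26 after the correction).

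*Ilk*, the integrin-linked kinase itself, was at 31.1 to 37.9 FPKM in WT and 35.2 to 41.0 FPKM in KO muscle (log2 fold change 0.095, adjusted p = 0.641). *Itgb1bp2*, which encodes melusin, a muscle protein that binds the beta1 tail, was at 90.1, 94.2 and 88.9 FPKM in the WT mice against 78.8, 84.5 and 80.1 FPKM in the KO mice. Here the KO libraries lay below the WT libraries, by a small step (log2 fold change -0.17, adjusted p = 0.286), and the correction for GC content left it at -0.16.

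The partners of laminin in the basement membrane (13 genes, 11 tested) had 4 genes higher and 0 lower in KO muscle at an unadjusted p under 0.05 and a median log2 fold change of 0.28, which was -0.022 after the correction, with 1 higher and 0 lower. The 1 was *Fbln1*, fibulin-1, which binds laminin and nidogen. It was at 1.77, 1.75 and 1.69 FPKM in the WT mice against 4.17, 6.14 and 2.95 FPKM in the KO mice, with the WT libraries close together and the KO libraries spread above them (log2 fold change 1.24, adjusted p = 0.0700, and 0.86 after the correction). Of 11 tested genes for laminin receptors other than integrins, the sarcoglycans and dystrophin that join dystroglycan to the cytoskeleton, and enzymes that glycosylate dystroglycan, 2 were higher and 1 lower, with a median of 0.013 (1 higher and 0 lower after the correction, median 0.078). *Bcam*, a receptor of laminin alpha5, was at 4.84, 4.56 and 3.90 FPKM in the WT mice against 7.86, 11.1 and 8.61 FPKM in the KO mice (1.03, adjusted p = 0.0667, and 0.41 after the correction). *Dag1*, dystroglycan, was at 17.2, 39.1 and 38.8 FPKM in the WT mice against 44.6, 41.0 and 46.1 FPKM in the KO mice. WT replicate 1 decided the size of its log2 fold change of 0.56 (adjusted p = 0.273), which was 0.17 without that library.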

How the data were processed

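Total RNA from GAS muscles was made into libraries with the TruSeq Stranded mRNA kit. Per the labels and methods, TopHat placed the reads on GRCm38 and Cufflinks gave the FPKM values that the authors deposited. Counts were not used here, and no batch is given in the sources used here. Versions and the annotation release are not given in the sources used here. Depth was estimated from the steps between low FPKM values in single-transcript genes, of which 90.6% to 95.05% per library lay within 0.15 of a whole fragment.

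Coordinates, GC content and transcript sequences came from GENCODE vM21 (GRCm38), which held all 37 integrin and laminin genes. KO was compared with WT with limma (version 3.58.1, run under R 4.3.3), with its variance trend, after log2 transformation with a pseudocount of 0.1 FPKM. Genes whose mean was under 0.5 FPKM were left out, and the fit was tested on simulated data. GC content and length were corrected with a loess curve of span 0.3 per library. The other alternatives covered the pseudocount, filter, scaling, variance model, array weights, replicate block, genes listed at 0 and each library left out. Samples were grouped by their titles. The limma p-values rest on the spread between 3 mice per genotype, which the variance trend draws toward that of all genes tested. The integrin and laminin genes and the lists were chosen with earlier results of these data known. Values per library are given for members at an unadjusted p under 0.05 or without overlap, the most abundant member of each class, and from the lists the 8 genes with the largest change among those with an unadjusted p under 0.05 and no overlap, plus *Tln1*, *Tln2*, *Ilk*, *Itgb1bp2* and *Dag1*. Of the 8, *Acta1* and *Ckm* are myofiber markers, given here as mean FPKM of 7706.5 and 4637.5 in WT and 13222 and 7646 in KO muscle. Other members named with values in each library were chosen after their values were seen. The values of 1 member under the filter are not reported here. Figures were drawn with matplotlib 3.10.9.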

Additional observations from a re-analysis of the deposited data

How the results depend on the processing

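No integrin or laminin gene was called in limma with each library left out or under the alternatives other than array weights. With array weights, 1863 of all 12334 genes tested were called higher and 1284 lower, so calls were not particular to the members. Of the 21 members, 4 were called (*Lamb2* at 0.97, adjusted p = 0.00755, *Itga5* at 0.58, *Itgb4* at 1.20 and *Itga9* at 0.77), and 3 were lower at an unadjusted p under 0.05. Against 31 genes called higher and 9 lower of all genes, there were 7 and 4 with a pseudocount of 1, 1 and 0 without genes listed at 0, 9 higher without a filter, 11 with quantile normalization, 12 without a variance trend, 10 with a length correction and 6 with the GC content correction. The members higher in KO at an unadjusted p under 0.05 were 5 as reported and 1 with the GC content correction, where 1 was lower (*Itgb5*). With a filter at a mean of 2 FPKM there were 3, of 13 members then tested, and *Itgb4* and *Itga9* were not among the 13. *Itga4* was the 1 member lower at an unadjusted p under 0.05 with a pseudocount of 0.01 or 1, without a filter, with quantile normalization, without a variance trend and without genes listed at 0. With each library left out, 6 to 103 genes were called higher and 6 to 23 lower, 3 to 6 members were higher and 0 to 1 lower at an unadjusted p under 0.05, and the median log2 fold change of the members was 0.017 to 0.16. The share of all genes at that unadjusted level was taken only as reported and with the GC content correction. Member counts at that level under the other alternatives, here and below, thus cannot be set against such a share. The 103 and 23 were without WT replicate 8, and the cause was not tested.

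Of the 21 tested members, 10 kept their sign under all alternatives, among them *Lamb2*, *Itgb4*, *Itga5*, *Itga7*, *Itga9*, *Itga11*, *Itga1* and *Itga4*. With the GC content correction the sign turned for *Itga3* (-0.13), *Lama5* (-0.26), *Lama2* (0.15), *Itgb5* (-0.37), *Itgb1* (0.098), *Lamc1* (-0.027) and *Itga6* (0.036). It also turned with quantile normalization for *Lamc1* (-0.013) and *Itgb6* (-0.018), with array weights for *Itgav* (0.090) and *Itgam* (-0.44) and with the length correction for *Lama2* (0.015) and *Itgb5* (-0.064). With each library left out, *Lamc1* ranged from -0.053 to 0.14, *Lama4* from -0.021 to 0.29, *Lama2* from -0.060 to 0.033, *Itgb5* from -0.065 to 0.080, *Itgb6* from -0.17 to 0.27, *Itga6* from -0.27 to 0.16 and *Itgam* from -0.11 to 0.66.

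Whether the numbers 1, 7 and 8 pair the samples is not given in the sources used here. The correlations of same-numbered deviations were -0.025, -0.080 and 0.034, and of the 3 numbers, replicate 8 alone correlated best with its own number in both genotypes. With the replicate block, 6 genes were called higher, 0 members were called and 4 were higher at an unadjusted p under 0.05. With the block and the GC content correction together, 5 genes were called higher, and 1 member was higher and 1 lower at an unadjusted p under 0.05, with the same signs as under the correction alone. Depth limits the members under 0.5 FPKM, since 1 fragment on 1 kilobase was worth 0.0463 to 0.0678 FPKM.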

Other observations

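The other ligands of integrins were read from a list of 17 genes, of which 15 were in the table and 11 were tested. At an unadjusted p under 0.05, 4 were higher in KO muscle and 0 lower (15.3% and 10.9% of all genes), 0 had an adjusted p under 0.05 in limma, and the median log2 fold change was 0.47. It was 0.43 after the correction for GC content, with 3 genes higher and 0 lower (5.33% and 5.4% of all genes). *Thbs1*, thrombospondin-1, a matrix protein that several integrins bind, was at 1.73, 1.91 and 0.726 FPKM in WT and 2.63, 3.08 and 2.16 FPKM in the KO mice. The KO libraries lay above the WT libraries, by 0.90 on the log2 scale (limma adjusted p = 0.160) before and also after the correction. Its lowest value with 1 library left out was 0.49. *Icam1*, the endothelial ligand of leukocyte integrins, was at 0.405, 0.306 and 0.350 FPKM in WT and 0.785, 0.908 and 0.650 FPKM in the KO mice, again without overlap (log2 fold change 0.95, adjusted p = 0.126, and 0.81 after the correction). It passed the filter only through its KO libraries (WT mean 0.354, KO mean 0.781 FPKM), and not in each fit with a library left out. It is among the genes counted as higher above, before and after the correction. For *Thbs2*, whose genotypes overlapped, the values were 0.73 before and 0.82 after the correction. *Thbs2* and *Itgad*, which like other members are outside the rule for named genes, were chosen after their values were seen.

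The equal values of *Itgb4* in KO replicates 1 and 8 were the 1 value that these libraries shared among the 14983 genes above 0 in all 6 libraries. The value of *Itgad* in WT replicate 8 would stand for about 24.5 fragments, while the other 5 libraries were listed at 0. Of the 4510 exonic bases of *Itgad*, 70 are shared with *Cox6a2* (mean 336 FPKM) on the other strand. More are shared with *4931431B13Rik* (388) and *Gm39091* (102) on the other strand and *Gm17831* (330) on the same strand. The source of the value was not tested.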
